A study of Hordeum vulgare with 12 samples.

Results

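Autophagy is the route by which plant cells wrap cytoplasm in a double membrane and deliver it to the vacuole for breakdown and reuse. The ATG1 kinase complex starts the process, a lipid kinase complex and the ATG9, ATG2 and ATG18 proteins build the membrane, and a pair of ubiquitin-like conjugation systems attaches the small protein ATG8 to membrane lipid. In plants the pathway is best known for recycling nutrients during starvation and leaf senescence, and mutants that lack it are sensitive to several stresses, drought among them in Arabidopsis.

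Described here are 4 barley genes of this pathway, chosen by gene identifier from the 30157 genes of the deposited table. ATG11 is a scaffold protein that joins the ATG1 kinase complex. ATG18a is a lipid-binding propeller protein of the growing membrane. ATG5 is the protein to which ATG12 is linked, and the resulting conjugate with ATG16 directs ATG8 to the membrane. ATG3 is the conjugating enzyme that transfers ATG8 to phosphatidylethanolamine. All 4 passed the filter on low values, at least 1 FPKM (counts scaled for gene length and library size) in at least 3 of the 12 libraries, which 17342 genes passed. They were put forward with earlier results of these data known, and which values put them forward is not recorded, so their own levels and differences are given below as a description without a p-value.

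The study sequenced leaf RNA of the barley accessions BCS8 and BCS24, each as control (labelled "ck") and under drought, with 3 libraries in each of the 4 groups. No transgene or other treatment is named for any group. How the drought was imposed, how old the seedlings were, and whether the replicates were separate plants or pots are not given, so p-values measure the spread between these libraries, which may be technical. Libraries held 49553836 to 61212440 counts. The 66 genes of the leaf marker list, Rubisco small subunits, chlorophyll a-b binding proteins and photosystem I genes, summed to 27891 to 78863 FPKM per library. The 18 genes of the seed marker list, chosen by a hordein description or the ontology term nutrient reservoir activity, summed to 222 to 427 FPKM. No tested gene of the seed list was described as hordein. The search for root markers found 0 genes, so a root admixture was not checked. Of 47 leaf markers tested, all but 8 in BCS8 and all but 1 in BCS24 had a positive drought estimate, with medians of 0.57 and 0.42 on the log2 scale. The share of counts in rRNA genes differed in opposite directions by group mean, 0.771% ± 0.239 (mean ± SD, n = 3) in BCS8 control against 1.65% ± 0.666 under drought, and 1.35% ± 0.775 in BCS24 control against 0.486% ± 0.248. The part of these shifts in the values below was not tested, beyond a fit with the rRNA share as a covariate. In bulk leaf, fewer cells of a type and less RNA per cell cannot be told apart.

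The 4 genes lie on 4 chromosomes, and none overlapped another gene of the table. The table names them by description, and its coordinates, whose genome build is not given in the sources used here, are quoted as deposited. ATG11 (HORVU6Hr1G029550) lies on the minus strand of 6H from 120531944 to 120538124. ATG18a (HORVU3Hr1G098020) lies on the minus strand of 3H from 657450243 to 657455985. ATG5 (HORVU2Hr1G049500) lies on the minus strand of 2H from 283224758 to 283227789 and has 1 transcript of 8 exons. ATG3 (HORVU1Hr1G056110) lies on the plus strand of 1H from 411145993 to 411149733.

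Per unit of length, ATG3 was the highest of the 4, followed by ATG18a, ATG11 and ATG5, in each of the 4 groups and without overlap between genes within a group. In BCS8 control the authors' FPKM were 26.0 ± 0.543 for ATG3 (mean ± SD, n = 3), 19.5 ± 1.63 for ATG18a, 10.8 ± 0.815 for ATG11 and 2.79 ± 0.278 for ATG5. ATG5 had the fewest counts behind its values, 115 to 348 per library. Counting error alone came to 9.33% of its lowest value, against 2.19% to 2.23% for the other genes at theirs.

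Values of 1 gene across libraries are given as CPM, library-scaled counts with TMM factors. Every gene but ATG18a was lower under drought than in control in both accessions without overlap between libraries, and ATG18a was lower without overlap in BCS24. Over all tested genes, 9.45% lay below control without overlap in BCS8, 13.4% in BCS24 and 2.77% in both. Since the values that put the genes forward are not recorded, nothing is read from these counts.

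**Figure D1:**
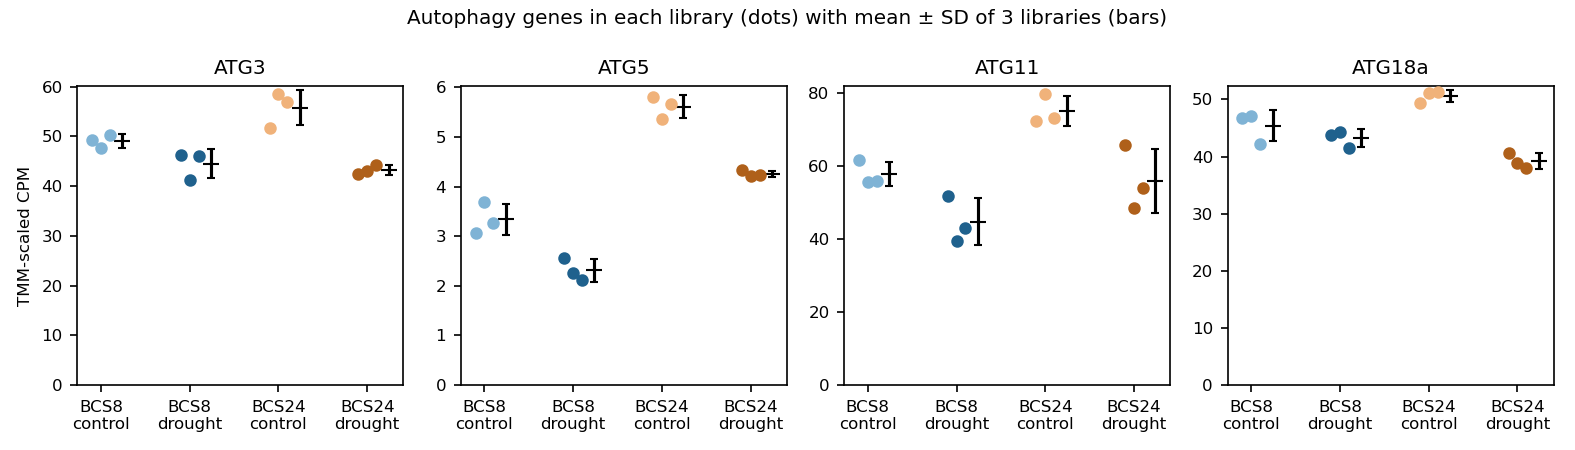
TMM-scaled CPM (y axis, linear from 0) of ATG3, ATG5, ATG11 and ATG18a in the 4 groups of accession and treatment (x axis). Dots are single libraries, and bars are the mean ± SD of 3 libraries. The drought dots of ATG5 lie below the control dots in both accessions, and both BCS24 groups of ATG5 lie above both BCS8 groups.

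ATG11, the scaffold of the initiating kinase complex, measured 61.7, 55.7 and 56.0 CPM in the BCS8 control libraries and 52.0, 39.4 and 43.0 under drought. In BCS24 it measured 72.3, 79.9 and 73.1 CPM in control and 65.7, 48.6 and 54.0 under drought. BCS24 control stood above every other group, whereas BCS24 drought overlapped both groups of BCS8. The log2 fold change with drought was −0.37 ± 0.13 (edgeR estimate ± SE) in BCS8 and −0.42 ± 0.13 in BCS24, or −22.5% and −25.4%. Drought replicate 1 was the highest drought library in each accession.

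ATG18a, which reads phosphatidylinositol phosphates on the forming membrane, measured 46.8, 47.2 and 42.2 CPM in BCS8 control and 43.8, 44.3 and 41.5 under drought. These groups overlapped, and the estimate was −0.07 ± 0.08 on the log2 scale. In BCS24 it measured 49.3, 51.1 and 51.3 CPM in control and 40.6, 38.9 and 37.9 under drought. Here the groups lay apart, with an estimate of −0.37 ± 0.08, and the BCS24 drought libraries were the lowest of all 12. The difference between the drought estimates of the accessions was −0.30 ± 0.11, and −0.20 with the rRNA share as a covariate.

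ATG5, the acceptor of ATG12, measured 3.07, 3.69 and 3.26 CPM in BCS8 control and 2.56, 2.26 and 2.12 under drought. In BCS24 it measured 5.81, 5.36 and 5.65 CPM in control and 4.33, 4.21 and 4.23 under drought. The 4 groups did not overlap, in the order BCS24 control, BCS24 drought, BCS8 control and BCS8 drought. The drought estimate was −0.53 ± 0.16 in BCS8 and −0.40 ± 0.16 in BCS24 on the log2 scale. The accessions stood further apart than the treatments, with BCS24 above BCS8 by 0.75 ± 0.16 in control and by 0.88 ± 0.16 under drought, or 1.68-fold and 1.84-fold.

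ATG3, the enzyme of the last step of ATG8 attachment, measured 49.3, 47.6 and 50.3 CPM in BCS8 control and 46.3, 41.1 and 46.0 under drought. In BCS24 it measured 51.8, 58.5 and 56.8 CPM in control and 42.5, 42.9 and 44.3 under drought. The control libraries of BCS24 lay above those of BCS8, and the drought libraries of the accessions overlapped. The drought estimate was −0.14 ± 0.08 in BCS8 and −0.37 ± 0.08 in BCS24 on the log2 scale, with a difference of −0.22 ± 0.12. ATG3 and ATG18a thus had estimates more negative in BCS24, while for ATG5 and ATG11 the differences, 0.13 ± 0.23 and −0.05 ± 0.19, were smaller than their errors. Across all tested genes edgeR called no such difference at an adjusted p under 0.05, against 2166 genes at an unadjusted p under 0.05 and 629 called by DESeq2, so the accessions cannot be said to differ in the drought response of the gene totals of any of the 4.

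Between the accessions, BCS24 exceeded BCS8 in control without overlap for each of the 4 genes, a pattern that 23.8% of tested genes shared. The control estimates were 0.38 ± 0.13 for ATG11, 0.16 ± 0.08 for ATG18a and 0.18 ± 0.08 for ATG3 on the log2 scale. Under drought the estimate of ATG11 was 0.32 ± 0.13, and those of ATG18a and ATG3 were −0.14 ± 0.08 and −0.04 ± 0.08. BCS24 exceeded BCS8 under drought without overlap for ATG5 alone, as did 19.3% of tested genes. ATG18a showed the opposite order under drought, every BCS24 library being below every BCS8 library. The share of all tested genes with that order was not counted, so nothing is read from it.

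The 4 genes did not follow 1 shared profile. Across the 12 libraries the Pearson correlation of log2(CPM + 1), given as a description, ranged from 0.394 between ATG5 and ATG18a to 0.843 between ATG5 and ATG11. The points share groups and library scaling. Among all tested genes, the 3 most like ATG11 were HORVU7Hr1G088960 at 0.984, HORVU3Hr1G016350 at 0.979 and HORVU3Hr1G078900 at 0.967. The closest to ATG5 were HORVU7Hr1G061390 at 0.987, HORVU4Hr1G025830 at 0.974, described as a homolog of a suppressor of mec-8 and unc-52, and HORVU4Hr1G061040 at 0.971. The closest to ATG3 were HORVU3Hr1G095070 at 0.969, HORVU2Hr1G098330 at 0.963 and HORVU6Hr1G087030 at 0.96. For ATG18a they were HORVU6Hr1G021150 at 0.948, HORVU5Hr1G048810 at 0.936 and HORVU3Hr1G031890 at 0.932. No core autophagy gene was among these 12 genes.

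The split of each gene over its transcripts is a separate readout, from the deposited transcript table. How reads were divided between transcripts is not given. ATG5 has 1 transcript, and ATG18a drew 99.7% of its counts from 1 of 3, so neither had a split to compare. The ATG18a share differed by 0.002 percentage points between accessions (exact permutation test within treatment, two-sided, adjusted p = 0.985) and by −0.122 points with drought (exact permutation test within accession, adjusted p = 0.36).

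ATG11 has 2 transcripts with the same start and end. Transcript 1 has 4 exons and 4812 bases, and transcript 2 has 5 exons and 4515 bases and took 75.8% of the gene's counts. In BCS8 the share of transcript 2 was 89.5%, 81.8% and 85.5% in control and 75.5%, 70.2% and 76.7% under drought. In BCS24 it was 67.3%, 60.3% and 64.0% in control and 80.2%, 79.7% and 88.7% under drought. The drought libraries thus lay below control in BCS8 and above control in BCS24, without overlap in either.

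The mean share fell by 11.4 percentage points with drought in BCS8 and rose by 19.0 points in BCS24, a difference of 30.4 points (exact permutation test of drought labels within accession, two-sided, p = 0.005, the smallest that 400 arrangements allow, adjusted p = 0.015 over 3 genes). This test was added after the transcript values had been seen, and libraries that lie apart in opposite directions give this smallest p by construction, so it is a description rather than separate support. The planned tests averaged over the other factor and did not pass, at 3.79 points for drought (exact permutation test, adjusted p = 0.594) and −6.49 points for accession (exact permutation test, adjusted p = 0.4125). The difference ranged from 27.5 to 32.3 points when 1 library was left out, with exact permutation adjusted p of 0.015 to 0.03. These follow from the same separation and are not separate support either.

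In level, transcript 1 of ATG11 was at 1.55 ± 0.351 FPKM (mean ± SD, n = 3) in BCS8 control, 2.09 ± 0.269 in BCS8 drought, 5.15 ± 0.799 in BCS24 control and 1.68 ± 0.655 in BCS24 drought. Transcript 2 was at 9.91 ± 1.14, 6.44 ± 1.04, 9.66 ± 0.253 and 8.59 ± 1.41 FPKM in the same order. The lower gene total under drought in BCS8 therefore lay in transcript 2, whose libraries did not overlap, while transcript 1 overlapped between control and drought. In BCS24 it lay mostly in transcript 1, whose drought libraries (1.02 to 2.32 FPKM) were below its controls (4.47 to 6.03), while transcript 2 overlapped.

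For context, 23 genes had a comparable transcript pair, a longer one with 1 exon fewer, and at least 100 counts in every library. Of these, 13% had a higher share of the longer transcript under drought without overlap in BCS8 and 8.7% a lower one in BCS24. ATG11 was the single gene with both, 4.35% of the 23, and 3 of the 23 had a difference between accessions at least as negative for the longer transcript, ATG11 included. By group mean, the rRNA share ran opposite to the share of transcript 2 within each accession. In the order BCS8 control, BCS8 drought, BCS24 control and BCS24 drought, its mean was 0.771%, 1.65%, 1.35% and 0.486%, and that of transcript 2 was 85.6%, 74.1%, 63.9% and 82.9%. Single libraries did not all keep this order. BCS24 control 1 had 0.531% rRNA and a transcript 2 share of 67.3%, against 0.658% and 79.7% in BCS24 drought 2. BCS8 drought 3 had 0.918% and 76.7%, against 0.997% and 81.8% in BCS8 control 2. The part of the rRNA share in the split was not tested.

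ATG3 has 4 transcripts, of which transcript 1 (10 exons, 1436 bases) took 60.1% of counts and transcript 2 (9 exons, 1603 bases) took 39.6%. Its share varied widely within groups. Transcript 1 took 44.2%, 79.6% and 49.5% in BCS8 control, 84.3%, 77.3% and 75.0% in BCS8 drought, 49.3%, 44.9% and 48.1% in BCS24 control, and 89.1%, 44.1% and 46.4% in BCS24 drought. The share was 16.8 points higher with drought (exact permutation test, adjusted p = 0.36) and differed by −14.6 points in BCS24 against BCS8 (exact permutation test, adjusted p = 0.36), and neither passed. BCS8 control 2 and BCS24 drought 1 stood far from the other libraries of their groups.

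**Figure D2:**
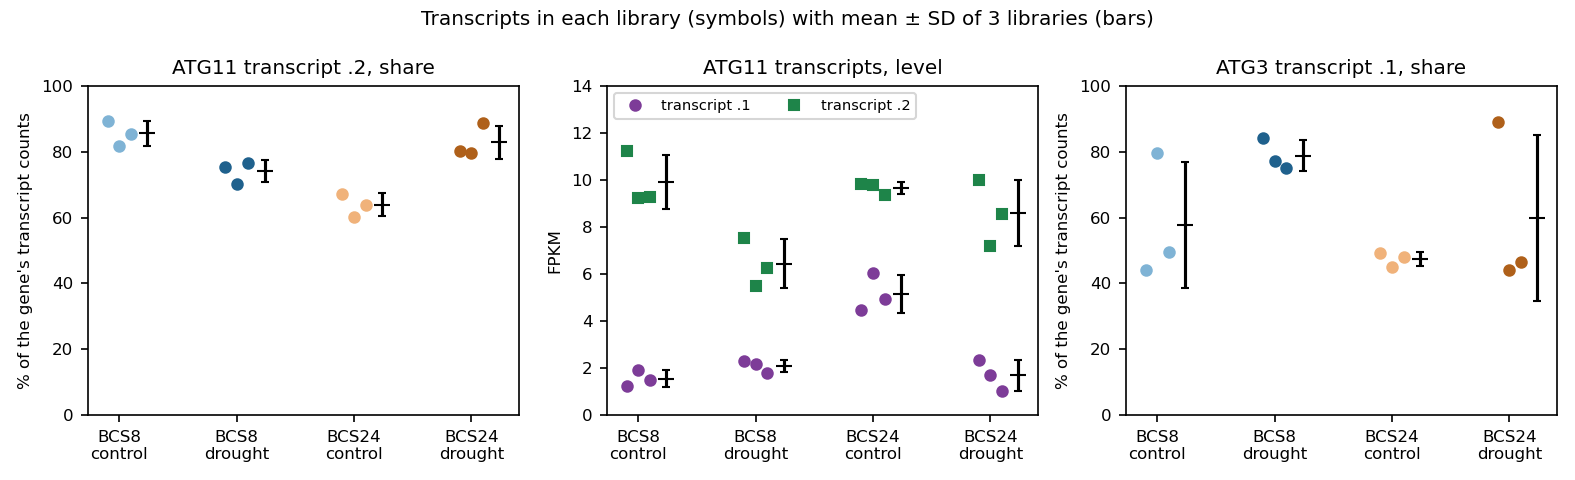
Left and right: share of the gene's transcript counts (%, y axis) taken by ATG11 transcript 2 and by ATG3 transcript 1. Middle: authors' FPKM of both ATG11 transcripts (y axis). The x axis gives the 4 groups, symbols are single libraries, and bars are mean ± SD of 3 libraries. The ATG11 share is lower under drought in BCS8 and higher in BCS24, and 2 ATG3 libraries stand apart from their groups.

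The wider pathway was described through 72 genes with an autophagy orthology number, description or ontology term, of which 65 were tested and 37 belonged to the core machinery. Of the 65, drought lowered 1 and raised 0 in BCS8 and lowered 5 and raised 1 in BCS24 (edgeR quasi-likelihood test, Benjamini-Hochberg adjusted p under 0.05 over all genes). Averaged over accessions, drought lowered 12 and raised 2. Over all tested genes drought called 1.53% in BCS8 (0.998% higher, 0.536% lower), 2.65% in BCS24 (1.4% higher, 1.25% lower) and 6.87% on average (4.0% higher, 2.87% lower). The list holds the 4 described genes, whose calls are not read here. Among the other 61, 1 fell and 0 rose in BCS8, 3 fell and 1 rose in BCS24, and 8 fell (13.1%) and 2 rose on average.

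Of the 37 core genes, 27 had a negative estimate in BCS8 and 32 in BCS24, with median log2 fold changes of −0.14 and −0.28. Without the 4 described genes, 23 of 33 were negative in BCS8 and 28 of 33 in BCS24, with medians of −0.13 and −0.20. Of all tested genes 47.4% and 50.2% were negative, with medians of 0.02 and −0.001. Of the 37, 7 lay below control without overlap in BCS8 (9.45% of all tested genes did), 20 in BCS24 (13.4%) and 7 in both (2.77%). These counts include the described ATG3, ATG5 and ATG11 in each accession, and ATG18a in BCS24. Nothing about the pathway is therefore read from their distance to the shares of all genes. The 7 in both were the described ATG3, ATG5 and ATG11, together with ATG1a, an ATG8 gene (HORVU2Hr1G046860) and both ATG6 genes. The ATG6 genes HORVU3Hr1G062970 and HORVU3Hr1G062980 overlap on opposite strands by 3130 bases. Whether counting used strand is not given, so reads of such partners may be shared.

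**Figure D3:**
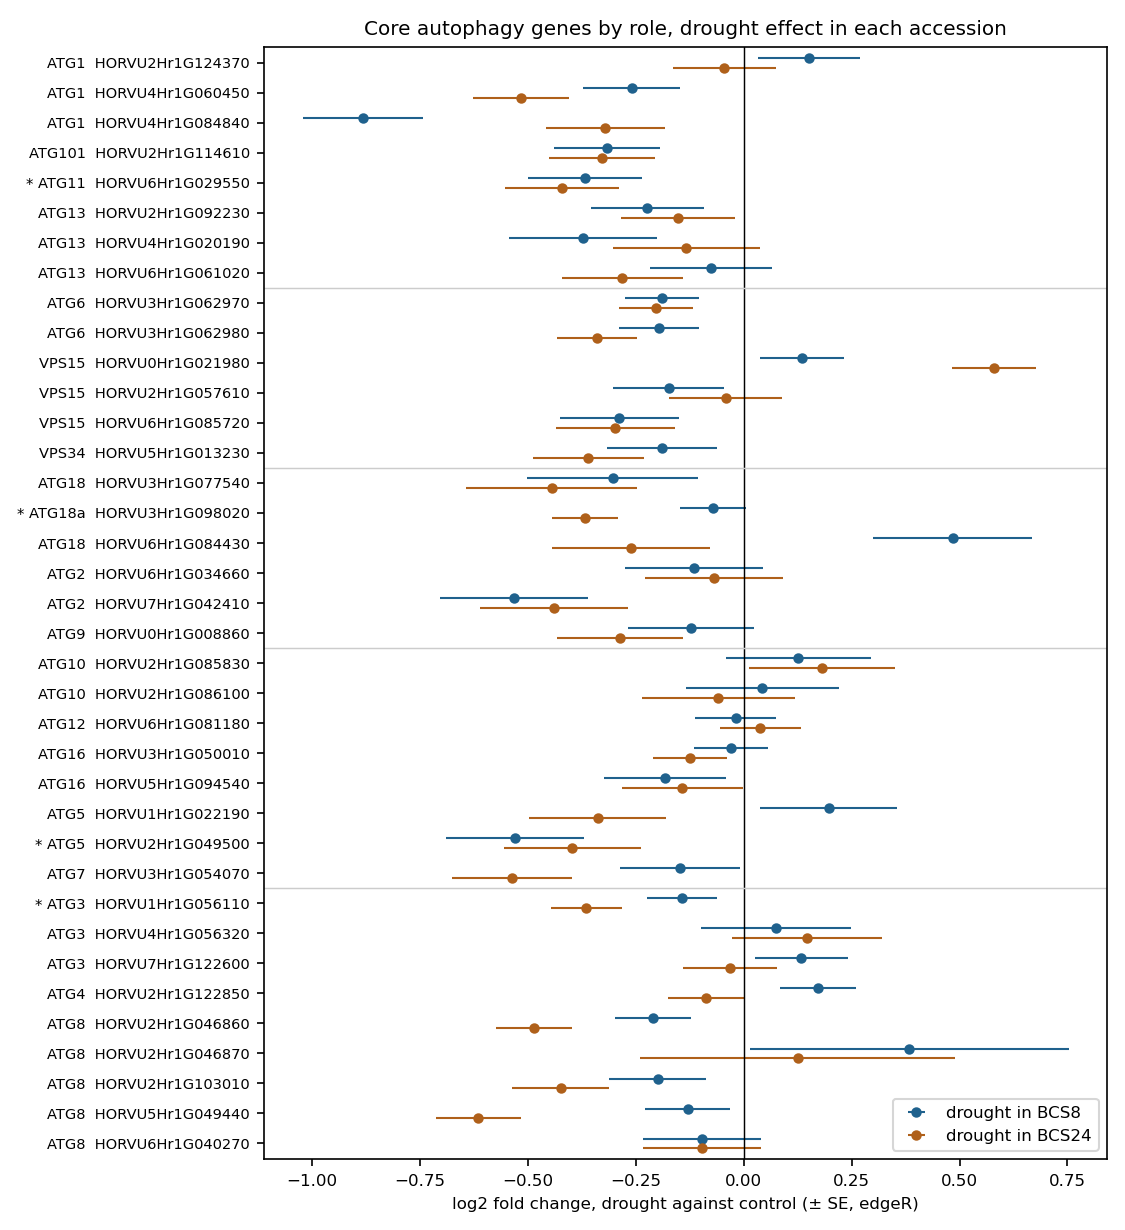
Log2 fold change of drought against control (x axis, edgeR estimate ± SE, from 3 against 3 libraries) for the 37 tested core autophagy genes, ordered by role from initiation (top) to ATG8 conjugation (bottom). Blue is BCS8, brown is BCS24, asterisks mark ATG3, ATG5, ATG11 and ATG18a, and 27 estimates in BCS8 and 32 in BCS24 lie left of 0.

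In the initiating complex, 7 of 8 tested genes had a negative estimate in BCS8 and 8 of 8 in BCS24, the described ATG11 counted among the negative ones in both. ATG1a (HORVU4Hr1G084840), the kinase itself, fell in BCS8 from 33.4 ± 2.60 to 17.5 ± 3.15 FPKM (mean ± SD, n = 3), by 0.88 ± 0.14 on the log2 scale (edgeR adjusted p = 0.0259), and by 0.60 ± 0.10 on average (edgeR adjusted p = 0.00773). In BCS24 its level was 34.2 ± 0.801 in control and 25.1 ± 2.91 FPKM under drought, which did not pass. Another ATG1 gene (HORVU4Hr1G060450) fell in BCS24 by 0.52 ± 0.11 (edgeR adjusted p = 0.044).

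Among the membrane suppliers, ATG9, ATG2 and ATG18, 5 of 6 had a negative estimate in BCS8 and 6 of 6 in BCS24. The described ATG18a is counted among the negative ones in both. The ATG2 gene HORVU7Hr1G042410, a lipid transfer protein that works with ATG18, fell on average by 0.49 ± 0.12 (edgeR adjusted p = 0.0396). The other ATG18 genes, described as 18f and 18b, did not pass in any drought comparison. Of the 6 lipid kinase complex genes, the ATG6 gene HORVU3Hr1G062980 fell on average by 0.27 ± 0.07 (edgeR adjusted p = 0.0375). One gene with the orthology number of VPS15, HORVU0Hr1G021980, went the other way and rose in BCS24 by 0.58 ± 0.10 (edgeR adjusted p = 0.021).

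Among the 8 tested genes for ATG7, ATG10, ATG12, ATG5 (the described gene included) and ATG16, drought called 0 in either accession by edgeR. At an unadjusted p under 0.05 edgeR had 1 in BCS8 and 2 in BCS24, DESeq2 called 1 and 1, and limma 0 and 2. ATG7, the activating enzyme of both conjugation systems, had values in BCS24 of 13.04 ± 1.80 FPKM in control and 8.23 ± 0.830 under drought without passing (edgeR adjusted p = 0.0665). Another gene with the ATG5 orthology number, HORVU1Hr1G022190, had estimates of 0.20 ± 0.16 in BCS8 (edgeR adjusted p = 0.576) and −0.34 ± 0.16 in BCS24 (edgeR adjusted p = 0.26). How reads shared by like genes were counted is not given, which leaves the split between such copies uncertain.

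Around ATG3, its substrate ATG8 gave most calls. The most abundant ATG8 gene, HORVU2Hr1G046860, fell in BCS24 from 148 ± 4.50 to 96.8 ± 3.83 FPKM, by 0.49 ± 0.09 on the log2 scale (edgeR adjusted p = 0.028). The ATG8 gene HORVU5Hr1G049440 fell in BCS24 by 0.62 ± 0.10 (edgeR adjusted p = 0.0177), and HORVU2Hr1G103010 fell on average by 0.31 ± 0.08 (edgeR adjusted p = 0.0421). The first overlaps the antisense gene HORVU2Hr1G046870 by 610 bases. That antisense gene also has the ATG8 orthology number, is counted among the 37 core genes and was at 0.676 to 0.894 FPKM by group. HORVU5Hr1G049440 overlaps the antisense gene HORVU5Hr1G049430 by 673 bases. The further ATG3-numbered genes HORVU7Hr1G122600 and HORVU4Hr1G056320 had estimates of 0.13 and 0.07 in BCS8 and −0.03 and 0.15 in BCS24, none passing, and HORVU2Hr1G005960 was below the filter.

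These pathway calls rest on few libraries. With the rRNA share as a covariate 0 list genes passed in either accession and 15 on average. The BCS8 call was lost without BCS8 control 1, BCS8 control 3 or BCS24 control 3. The 6 calls in BCS24 became 0 without BCS24 control 2, control 3, drought 1 or drought 2, 2 without BCS24 drought 3 or BCS8 control 1, 3 without BCS24 control 1, and 4 without BCS8 control 2, BCS8 control 3 or BCS8 drought 1. The 14 on average became 3 to 9 without any library but BCS8 drought 1, which left 12. ATG1a, HORVU2Hr1G046860 and HORVU5Hr1G049440 passed on average under all 18 alternatives tried. The calls on average of HORVU7Hr1G042410, HORVU3Hr1G062980 and HORVU2Hr1G103010 were kept in 7, 8 and 6 of 18. In BCS24 the calls of HORVU4Hr1G060450 and HORVU2Hr1G046860 were kept in 7 and 9 of 18, and those of HORVU0Hr1G021980 and HORVU5Hr1G049440 in 13 each. The BCS8 call of ATG1a was kept in 14.

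Between the accessions, 15 list genes were higher and 3 lower in BCS24 control, and 16 higher and 8 lower in BCS24 drought, with 19.1% and 27.4% of all tested genes called in either direction. Of all tested genes 9.98% were higher and 9.15% lower in control, and 13.3% higher and 14.1% lower under drought. Among the 61 list genes other than the 4 described, 14 were higher and 3 lower in control, and 15 higher and 8 lower under drought. Of the 37 core genes all but 4 had a positive estimate in control, with a median of 0.24 on the log2 scale. Without the described genes, 4 of 33 core genes were negative, with a median of 0.24. Of all tested genes 51.2% were negative in control, with a median of −0.014. ATG101, a partner of ATG13 in the initiating complex, was higher by 0.73 ± 0.12 in control (edgeR adjusted p = 0.00331) and by 0.72 ± 0.12 under drought (edgeR adjusted p = 0.00329). Genes with the VPS15 number went both ways. HORVU2Hr1G057610 was lower in BCS24 control by −1.26 ± 0.13 (edgeR adjusted p = 0.000131), at 2.27 ± 0.165 against 5.48 ± 0.663 FPKM. HORVU6Hr1G085720 was higher in BCS24 control by 0.605 ± 0.139 (edgeR adjusted p = 0.0151), at a mean of 16.7 against 10.9 FPKM. Under drought it was higher in BCS24 by 0.594 ± 0.139 (edgeR adjusted p = 0.0129). Under drought the ATG8 genes HORVU2Hr1G046860 and HORVU5Hr1G049440 were lower in BCS24 (−0.34, edgeR adjusted p = 0.0208, and −0.43, edgeR adjusted p = 0.012). The list count in control ranged from 5 to 20 with 1 library left out, being 5 without BCS8 control 2 or BCS24 control 2, 7 without BCS24 control 3, 9 without BCS8 control 3 and 12 without BCS8 control 1. Under drought it was 8 without BCS24 drought 1 and 14 without BCS8 drought 2. With the rRNA share as a covariate the counts were 9 in control and 6 under drought.

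The TOR kinase complex represses autophagy in plants when nutrients are ample. Of its 3 tested genes drought called 0 by edgeR in BCS8, in BCS24 and on average, and all 3 estimates were negative in each. DESeq2 and limma also called 0, and at an unadjusted p under 0.05 edgeR had 0, 0 and 1. TOR itself (HORVU1Hr1G059220) was higher in BCS24 than in BCS8 by 0.63 ± 0.17 in control (edgeR adjusted p = 0.0267) and by 0.64 ± 0.17 under drought (edgeR adjusted p = 0.02). Of 79 proteasome genes, the other main route of protein breakdown, drought called 0 by edgeR in all 3 comparisons, with median log2 fold changes of −0.08 in BCS8 and −0.04 in BCS24. At an unadjusted p under 0.05 edgeR had 5, 8 and 10, DESeq2 called 0, 3 and 4, and limma 0, 1 and 4, in BCS8, in BCS24 and on average.

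Autophagy delivers its cargo to the vacuole for breakdown. The list called vacuolar processing was drawn by ontology term and by descriptions of vacuolar-processing enzyme, cysteine proteinase or aspartic proteinase. The list also holds genes described as cysteine proteinase inhibitors, none of them called on average. Of its 39 tested genes drought lowered 4 and raised 1 on average, against 2.87% lower and 4.0% higher over all tested genes. HORVU5Hr1G095580 fell by 2.57 ± 0.49 on the log2 scale (edgeR adjusted p = 0.0147), HORVU5Hr1G082810 fell by 0.77 ± 0.10 (edgeR adjusted p = 0.00332), and HORVU1Hr1G068530 rose by 1.51 ± 0.33 (edgeR adjusted p = 0.0246). By accession, the fall of HORVU5Hr1G095580 passed in BCS24 alone. Its estimates were −3.985 ± 0.74 there (edgeR adjusted p = 0.0287) and −1.154 ± 0.666 in BCS8 (edgeR adjusted p = 0.42). On average, the probable cysteine protease RD21B (HORVU2Hr1G113460) fell by 0.88 ± 0.14 (edgeR adjusted p = 0.00684) and the thiol protease aleurain (HORVU5Hr1G061770) by 0.52 ± 0.11 (edgeR adjusted p = 0.0235). The median of the list, inhibitors included, was 0.09, against 0.007 for all tested genes. Of 76 genes with the leaf senescence term, 4 rose and 2 fell on average, close to the 6.87% of all tested genes. HORVU3Hr1G059170 rose by 2.02 ± 0.28 (edgeR adjusted p = 0.00473), and HORVU2Hr1G017950 rose by 1.14 ± 0.30 (edgeR adjusted p = 0.0484). These calls on average were kept in 18 and 6 of 18 alternatives. In BCS8 2 genes of the list rose and 1 fell, and in BCS24 1 rose and 2 fell. Over all tested genes 1.53% were called in BCS8 (0.998% higher, 0.536% lower) and 2.65% in BCS24 (1.4% higher, 1.25% lower). The BCS24 estimate was −2.238 ± 0.422 for HORVU5Hr1G077010 (edgeR adjusted p = 0.0304). For HORVU7Hr1G055080 it was −1.116 ± 0.245 (edgeR adjusted p = 0.0455). These BCS24 calls were kept in 12 and 6 of 18 alternatives.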

How the data were processed

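The authors deposited, per the file headers, a gene table and a transcript table, each with counts and FPKM for 12 leaf libraries. Per the labels' protocols, RNA was poly(A)-selected, made into dUTP-stranded libraries and sequenced from both ends. The submitters' processing notes name StringTie 2.1.6, DESeq2 and edgeR without a role. Aligner, genome build, strand setting and the handling of shared reads: not given in the sources used here.

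The 17342 genes that reached 1 FPKM in 3 or more of the 12 libraries entered 1 edgeR 4.0.16 fit (R 4.3.3) of TMM-scaled counts, with a coefficient per group, 8 residual degrees of freedom and the quasi-likelihood F test. Benjamini-Hochberg adjustment covered every gene in the fit, and an adjusted p under 0.05 counted as a call. SE is the log2 fold change over the square root of F. Transcript shares are percentages of a gene's summed transcript counts, compared by exact permutation. Simulated data had 17342 genes, with changes placed under drought in both accessions. The mean drought comparison recovered 70% of 2-fold and 91% of 4-fold changes. The BCS8 comparison recovered 36% and 78%, and the BCS24 comparison 38% and 80%, so smaller changes can be missed.

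The 4 genes and all lists were chosen with earlier results of these data known. Named genes are drawn from these 4, the 3 most like each by Pearson r, up to 10 autophagy list genes past the threshold by adjusted p per comparison, and, per comparison, the 2 called members of each other list with the largest change. ATG7, the further ATG3 and ATG5 copies, aleurain and HORVU2Hr1G046870 fall outside that rule and were chosen after their values were seen. Alternatives were DESeq2 1.42.0 and its size factors, no filter, limma 3.58.1 on log2(FPKM + 1), a replicate block, the rRNA share as a covariate and leaving out each library. Counting errors of the 4 genes cover counting only, whereas SD and SE give the spread between libraries.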

Additional observations from a re-analysis of the deposited data

Results flagged for a closer look

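The drought effect on the share of ATG11 transcript 2 differed between the accessions by 30.4 percentage points (30.439), the fall of 11.4 points in BCS8 standing against the rise of 19.0 points in BCS24. It was singled out because all 3 drought libraries of BCS8 lay below, and all 3 of BCS24 above, the controls of their accession. An exact permutation test of drought labels within accession (p = 0.005, adjusted p = 0.015 over 3 genes) was added after these values were seen. Its p is the smallest that 400 arrangements allow and follows from that separation, so it is not separate support. By group mean, though not in every library, the rRNA share ran opposite to the share of transcript 2 within each accession. The part of the rRNA share in the difference was not tested.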

How the results depend on the processing

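The drought estimates of the 4 genes were negative in all 18 alternatives in each accession and on average. The drought difference between accessions changed sign in 1 of 18 for ATG5 and 3 of 18 for ATG11. With limma on log2(FPKM + 1) the median of all genes shifted by −0.104 in BCS24 drought, and the estimates there were −0.47 for ATG3 and −0.47 for ATG18a. List counts moved most. In BCS8 the 1 call became 5 with DESeq2 and 0 with the rRNA share as a covariate. In BCS24 the 6 calls became 11 with DESeq2, 10 with limma, 2 with no filter and 0 with the rRNA covariate. On average the 14 became 7 with no filter, where more genes were tested, and the difference between accessions went from 0 to 2 with DESeq2. Between accessions the rRNA covariate gave 9 in control, from 18, and 6 under drought, from 24. The causes were not tested.

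With 1 library left out, list counts ran from 0 to 1 in BCS8, 0 to 6 in BCS24, 3 to 12 on average, 0 for the difference, 5 to 20 between accessions in control and 8 to 28 under drought. Transcript shares ran, for accession, drought and their difference, from −22.0 to −9.19, 9.48 to 22.2 and −23.2 to −0.739 points for ATG3, from −7.96 to −5.51, 2.32 to 4.77 and 27.5 to 32.3 for ATG11, and from −0.027 to 0.045, −0.165 to −0.083 and 0.079 to 0.243 for ATG18a.

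The labels state no pairing. Same-numbered libraries deviated together for every number only between the drought groups (r = 0.15, 0.337 and 0.225). A replicate block gave 1, 4, 10, 0, 15 and 22 list calls in the order above. Depth limits ATG5 most. In simulation, 2-fold changes placed in both accessions were often missed by the comparison within 1 accession.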
